A study of Mus musculus with 159 samples.

Results

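MARCO+ segments are the parts of a liver section that stained for the macrophage protein IBA1 and for MARCO but not for DESMIN, a protein of hepatic stellate cells (HSCs). All 45 MARCO+ segments among the 159 segments of the series were used, each taken by its segment name. They came from 4 mouse livers. Livers 1 and 3 are labelled treated CCl4 (22 segments) and livers 2 and 4 are labelled control (23 segments). MarcoHi and MarcoLo are the 2 classes of regions of interest (ROIs), picked by hand for high or low MARCO staining. Liver 1 gave 5 MarcoHi and 7 MarcoLo segments, liver 3 gave 6 and 4, liver 2 gave 8 and 6, and liver 4 gave 7 and 2.

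The mice were WT C57BL/6 animals, 8 weeks old at the start. The methods name both sexes for the study as a whole and do not give the sex of the 4 mice sectioned here. The labels call livers 1 and 3 fibrosis and livers 2 and 4 healthy. The study's methods and design text instead describe 6 weeks of intraperitoneal carbon tetrachloride (CCl4), given repeatedly each week, for the livers sectioned here. In the methods, 2 of these livers also came from mice that received sorted MARCO+ bone marrow-derived macrophages (BMDMs) by tail vein at weeks 3 and 5, and 2 from mice that received saline. The labels do not say which livers received the cells. The pairs are therefore called only by their labels, and transfer, CCl4 and any other difference between the pairs cannot be told apart.

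MARCO is a class A scavenger receptor that binds bacteria and modified lipoproteins. In mouse liver it is carried by part of the resident macrophages, the Kupffer cells, and by recruited macrophages in some forms of injury. CCl4 is converted by hepatocytes to a radical that kills cells around the central vein, and repeated doses lead to scarring by HSCs, with monocyte-derived macrophages entering the tissue. Macrophages take part both in building this scar and in breaking it down, the latter largely through secreted and membrane-bound proteases.

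The probes of each segment were counted by sequencing and normalised by the authors to the upper quartile (Q3), so that the 75th percentile over the 607 genes stood at 26.1 in every segment. The methods describe a restriction to genes that the authors' single-cell data placed in HSCs, although Marco and a few other macrophage genes are among those deposited. Of 34 genes listed here for macrophages and Kupffer cells, 4 were measured (Marco, Fcna, Id3 and Axl), and of 22 genes listed for monocyte-derived and scar macrophages, 2 were (Plac8 and Cd63). None of the 26 hepatocyte, 13 cholangiocyte or 24 lymphocyte and other leukocyte genes was measured, so the share of these cells in a segment was not tested. MARCO+ segments held 3106 to 27341 counts over the 607 genes. The median was 7366 in liver 1 and 17654 in liver 3, against 7061.5 in liver 2 and 12249 in liver 4, so each label had 1 shallower and 1 deeper liver. By ROI class, the median was 15750 in MarcoHi segments labelled treated CCl4 and 8491 in those labelled control, with 7692 and 7652 in MarcoLo segments.

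Within each liver and ROI class, segment values were averaged, 1 was added and the log2 was taken, which gave 8 means. The liver is the replicate, with n = 2 livers per label. In limma with the liver as a random block and Benjamini-Hochberg adjustment over 607 genes, 1 gene passed an adjusted p of 0.05 in MarcoHi ROIs (0.165% of the genes tested). In MarcoLo ROIs 3 genes passed (0.494%), and in the mean of both classes 4 genes passed (0.659%). Of these, 2 were higher and 1 lower in the livers labelled treated CCl4 in MarcoLo ROIs, and 3 were higher and 1 lower in the mean of both classes. The higher genes were Marco, Mmp14 and Flna. At an unadjusted p below 0.05 there were 44, 59 and 72 genes in the 3 comparisons. The median difference over all 607 genes in the mean of both classes was -0.01. In such bulk segments, more cells of a type and more RNA per cell cannot be told apart.

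Marco (gene 17167, GRCm38.p6 chr1:120474538-120505024) encodes the receptor by which the segments were stained. In MarcoHi ROIs its Q3-normalised value ran from 830 to 1510 over the 5 segments of liver 1 (median 1169), and from 870 to 1833 over the 6 segments of liver 3 (median 1397). In liver 2 it ran from 117 to 353 over 8 segments (median 236), and in liver 4 from 201 to 424 over 7 segments (median 262). The lowest of the 11 MarcoHi segments labelled treated CCl4 thus lay above the highest of the 15 labelled control.

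In MarcoLo ROIs, Marco ran from 142 to 745 in liver 1 (median 316) and from 343 to 711 in liver 3 (median 540). It ran from 48.4 to 203 in liver 2 (median 83.2), and the 2 segments of liver 4 stood at 55.9 and 133. Here single segments of the labels overlapped, since the lowest of liver 1 lay below the highest of liver 2, while the liver means did not. The difference between labels was 2.26 ± 0.22 (log2, SE) in MarcoHi ROIs (limma adjusted p = 0.00108), 2.23 ± 0.22 in MarcoLo ROIs (limma adjusted p = 0.0012) and 2.24 ± 0.16 in their mean (limma adjusted p = 9.11e-05). A two-sided exact permutation test over the 4 livers gave p = 0.333 in either class, the smallest value that 2 livers against 2 allow. Within the shallower livers the difference was 2.10 (liver 1 minus liver 2), and within the deeper livers it was 2.38 (liver 3 minus liver 4).

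Mmp14 (gene 17387, GRCm38.p6 chr14:54431598-54442456) encodes MT1-MMP, a membrane-anchored metalloproteinase that cleaves fibrillar collagen and activates MMP2. In MarcoHi ROIs the segments of liver 1 ranged from 18.1 to 56.5 (median 40.3) and those of liver 3 from 38.5 to 59.2 (median 49.5). Those of liver 2 ranged from 4.74 to 30.4 (median 16.6) and those of liver 4 from 8.02 to 20.2 (median 18.0). Apart from 1 low segment in liver 1, each MarcoHi segment labelled treated CCl4 lay above each one labelled control.

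In MarcoLo ROIs the lowest Mmp14 value was 26.1 in liver 1 and 32.2 in liver 3, and the highest was 30.4 in liver 2 and 19.9 in liver 4. The liver means were 36.3 and 44.6 against 17.5 and 10.9. These values rested on few counts, with a median of 14 per MARCO+ segment. The difference was 1.43 ± 0.18 in the mean of both classes (limma adjusted p = 0.00529) and 1.48 ± 0.24 in MarcoLo ROIs (limma adjusted p = 0.0262). It was 1.37 ± 0.24 in MarcoHi ROIs, which did not pass (limma adjusted p = 0.0675). Liver 1 exceeded liver 2 by 1.12, and liver 3 exceeded liver 4 by 1.73. The low mean of liver 4 in MarcoLo ROIs came from 2 segments, at 1.86 and 19.9, the former a single count. With that mean left out, the MarcoLo difference was 1.16 (limma adjusted p = 0.0852) and the mean of both classes 1.27 (limma adjusted p = 0.00363).

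Flna (gene 192176, GRCm38.p6 chrX:74223461-74249854) encodes filamin A, which crosslinks actin filaments and anchors them to membrane proteins. Its liver means in MarcoHi ROIs were 38.3 and 47.2 in the livers labelled treated CCl4, and 23.2 and 19.8 in those labelled control. In MarcoLo ROIs they were 33.2 and 41.1 against 23.0 and 22.7. Both livers labelled treated CCl4 lay above both others in each class, although single segments overlapped. The difference of 0.81 ± 0.15 in the mean of both classes lay just past the threshold (limma adjusted p = 0.0488) and did not pass in either class alone. Without the liver 4 MarcoLo mean its adjusted p was 0.0524.

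**Figure D1:**
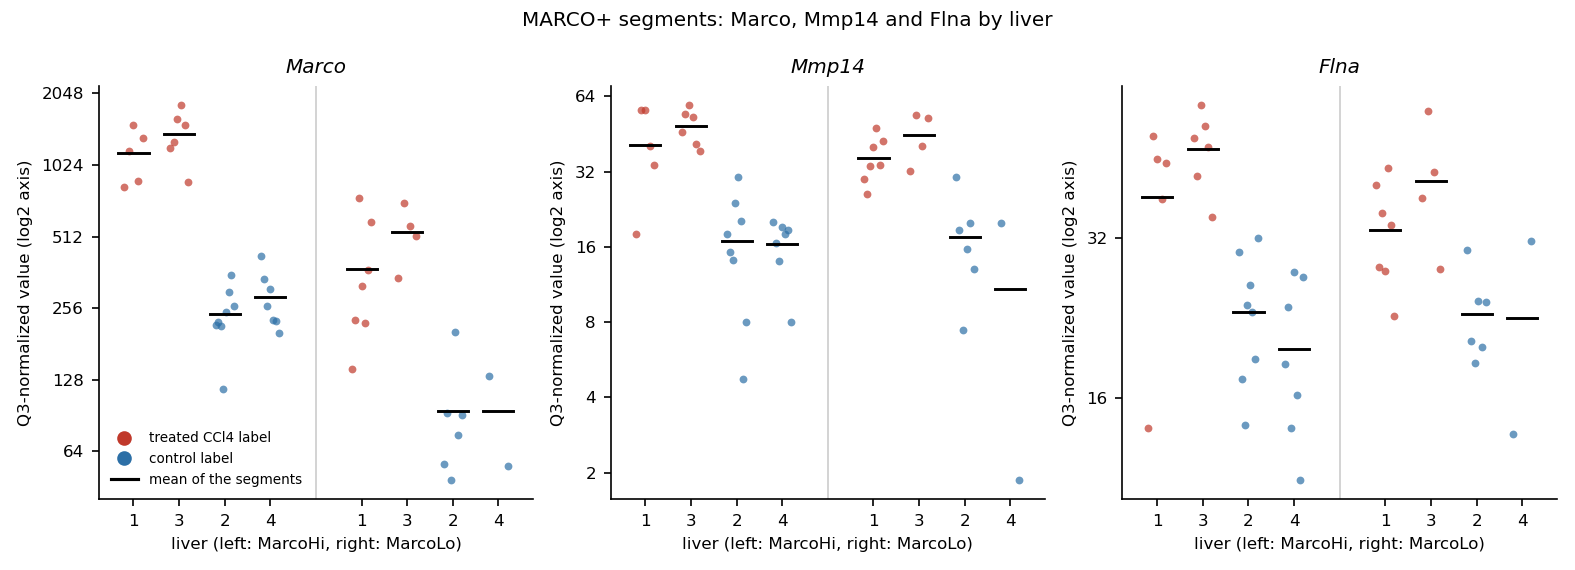
Q3-normalised value (log2 axis) of Marco, Mmp14 and Flna in each of the 45 MARCO+ segments (points), by liver, for MarcoHi ROIs on the left and MarcoLo ROIs on the right of each panel, with bars at the mean of a liver's segments. Marco, Mmp14 and Flna have higher liver means in livers 1 and 3 (treated CCl4 label, red) than in livers 2 and 4 (control label, blue) in both classes, with liver 4 resting on 2 MarcoLo segments.

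The calls of Mmp14 and Flna depended on having all 4 livers, apart from Mmp14 without liver 2. With any 1 liver left out, Marco kept a difference of 2.04 to 2.44 in the mean of both classes and passed each time (limma adjusted p from 0.00135 to 0.0189). In single classes it did not pass without liver 2 (limma adjusted p = 0.116 in MarcoHi and 0.0644 in MarcoLo ROIs) or without liver 4 (0.064 and 0.0928). Mmp14 kept 1.26 to 1.60 and passed without liver 2 alone (limma adjusted p = 0.0243). Flna kept 0.66 to 0.96 and did not pass in any of these 4 fits. In a linear mixed model fitted to the individual segments, with liver as its random term, Benjamini-Hochberg adjustment gave adjusted p values of 0.25 for Marco, 0.309 for Mmp14 and 0.45 for Flna in the mean of both classes. For Marco it gave 0.0975 in MarcoHi and 0.0578 in MarcoLo ROIs.

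Further genes with low p values did not pass the threshold, and their values are given as a description. Among those with higher values in the livers labelled treated CCl4, Emp3, a membrane glycoprotein gene, had liver means of 13.1 and 16.5 against 9.46 and 9.53 in MarcoHi ROIs, and 14.6 and 16.6 against 7.29 and 8.69 in MarcoLo ROIs. The labels did not overlap in either class, and the mean difference was 0.73 ± 0.14 (limma adjusted p = 0.0556). Lmo4, a LIM-domain transcriptional cofactor, differed by 0.76 ± 0.16 (limma adjusted p = 0.0688). Vim, which encodes the intermediate filament vimentin, had means of 38.6 and 49.2 against 27.4 and 24.4 in MarcoHi ROIs and 44.4 and 50.1 against 31.2 and 31.0 in MarcoLo ROIs. Its mean difference was 0.66 ± 0.14 (limma adjusted p = 0.0759).

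Cebpb, a transcription factor of myeloid cells and of the acute phase response, stood at 14.9 and 15.0 against 4.64 and 8.24 in MarcoHi ROIs. In MarcoLo ROIs it stood at 16.0 and 11.4 against 7.84 and 12.4, so that liver 3 lay below liver 4. Its differences were 1.14 ± 0.28 in MarcoHi ROIs (limma adjusted p = 0.297) and 0.41 in MarcoLo ROIs. Nfat5, a transcription factor of the osmotic stress response, showed the opposite order of sizes, with 0.22 in MarcoHi and 0.92 ± 0.18 in MarcoLo ROIs (limma adjusted p = 0.0849). Both orders rested partly on low counts, with a median of 2.5 for Cebpb in MarcoHi segments of liver 2. For Nfat5 in MarcoLo segments the median was 2.5 in liver 2 and 3.5 in the 2 segments of liver 4. Col1a2, a chain of type I collagen, differed by 0.30 in MarcoHi and by 1.05 ± 0.28 in MarcoLo ROIs (limma adjusted p = 0.223), on a median of 5 counts per segment. In MarcoHi ROIs it stood at 5.14 and 9.83 against 5.65 and 5.59, so that liver 1 lay below both livers labelled control.

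Among genes with lower values in the livers labelled treated CCl4, Golim4, a Golgi membrane protein, had liver means of 11.1 and 14.6 against 20.4 and 25.9 in MarcoHi ROIs. In MarcoLo ROIs these were 12.0 and 8.83 against 21.8 and 20.2. The labels were apart in both classes, and the mean difference was -0.88 ± 0.17 (limma adjusted p = 0.0556). C1ra, a serine protease of the first complement component, stood at 34.3 and 40.1 against 59.7 and 61.7 in MarcoHi ROIs and at 48.9 and 43.9 against 66.0 and 74.5 in MarcoLo ROIs. Its mean difference was -0.64 ± 0.14 (limma adjusted p = 0.0759). Sdc2, which encodes the heparan sulfate proteoglycan syndecan 2, differed by -0.55 ± 0.14, and Kank2, an adaptor of focal adhesions, by -0.69 ± 0.18 (both limma adjusted p = 0.154).

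In MarcoHi ROIs alone, Zbtb20, a transcriptional repressor, differed by -0.64 ± 0.18 and Fn1, which encodes fibronectin, by -0.64 ± 0.18 (both limma adjusted p = 0.344). In MarcoLo ROIs alone, Bicc1, an RNA-binding protein gene, differed by -1.04 ± 0.23 and Golgb1, which encodes the Golgi protein giantin, by -0.81 ± 0.18 (both limma adjusted p = 0.106). Bicc1 was a low gene, with a single count in 28.9% of MARCO+ segments. Since no value in the table was 0, a gene with a single count cannot be told from an absent one.

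**Figure D2:**
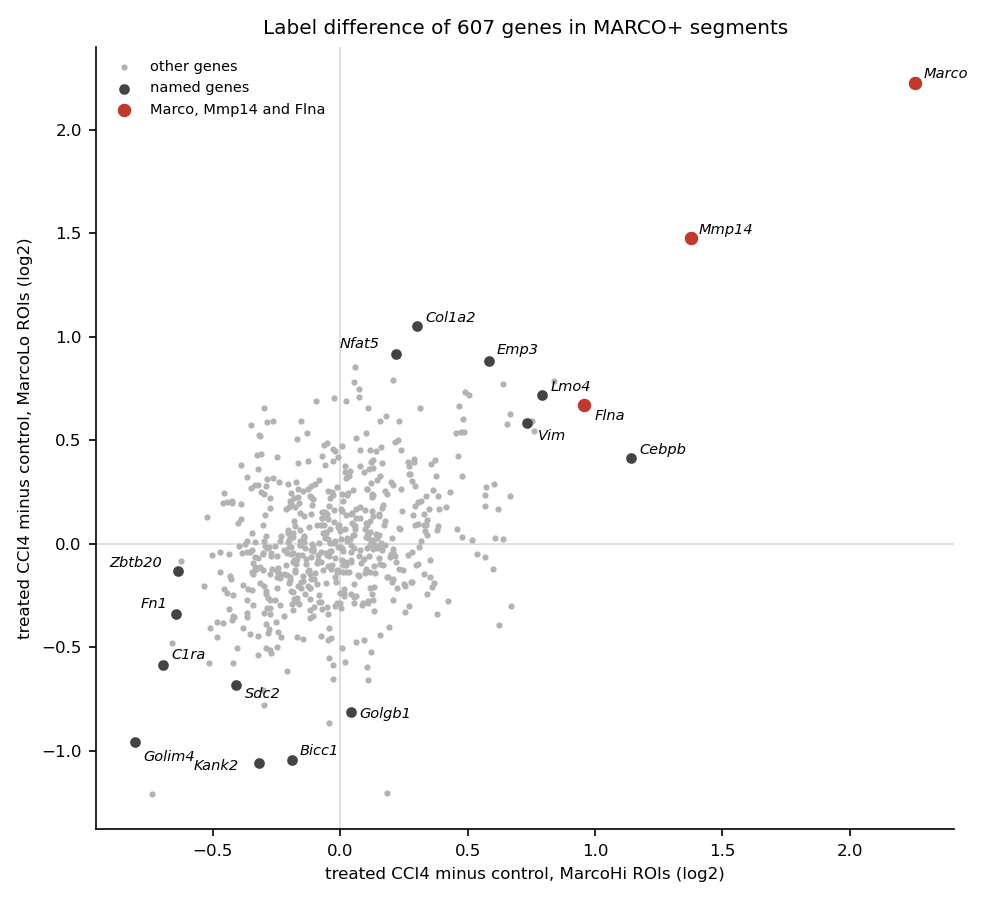
Each point is 1 of 607 genes, with the treated CCl4 minus control difference (log2) in MarcoHi ROIs on the horizontal axis and in MarcoLo ROIs on the vertical axis, over the same 4 livers. Marco (2.26 and 2.23) and Mmp14 (1.37 and 1.48) stand outside the cloud of points at the upper right, and Flna (0.96 and 0.67) at its edge.

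The difference between labels was compared between ROI classes within livers. In limma on the MarcoHi minus MarcoLo difference of each liver, 0 of 607 genes passed (0%), and 30 had an unadjusted p below 0.05. For Marco this difference was 0.03 ± 0.26, for Mmp14 -0.10 ± 0.29 and for Flna 0.29 ± 0.25 (limma adjusted p from 0.979 to 0.988). With 4 livers, a difference between classes of the size of these errors was not detectable.

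The same sections gave HSC segments (41), which are DESMIN+, and Other segments (49), which are negative for all 3 stains, so it was possible to ask whether a difference between labels was larger in MARCO+ segments than elsewhere in the same livers. Against Other segments, 3 genes passed the test of this difference (0.494%). Mmp14 differed between labels by 1.43 in MARCO+ segments and by 0.18 ± 0.10 in Other segments, and the difference of these differences was 1.25 ± 0.15 (limma adjusted p = 0.00632). Marco differed by 1.21 ± 0.36 in Other segments, which was smaller than in MARCO+ segments by 1.03 ± 0.18 (limma adjusted p = 0.0494). Bicc1 differed by -0.62 in MARCO+ segments and by 0.26 ± 0.10 in Other segments (difference -0.87 ± 0.15, limma adjusted p = 0.0481).

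Against HSC segments, 4 genes passed (0.659%). Mmp14 differed between labels by -0.09 ± 0.21 in HSC segments, 1.52 ± 0.24 below its difference in MARCO+ segments (limma adjusted p = 0.000373). Flna differed by -0.38 ± 0.23 in HSC segments (difference 1.19 ± 0.25, limma adjusted p = 0.0106), and Marco by 1.02 ± 0.25 (difference 1.22 ± 0.27, limma adjusted p = 0.0176). Ggt5, a gamma-glutamyltransferase that cleaves leukotriene C4, differed by -0.47 in MARCO+ and by 0.63 ± 0.27 in HSC segments (difference -1.10 ± 0.27, limma adjusted p = 0.0406). Ggt5 had a median of 4 counts per MARCO+ segment. HSC segments were shallower, with a median total of 3675 counts (1448 to 16715) against 8408 in MARCO+ segments. In their MarcoHi ROIs, the median count of Ggt5 was 1 in livers 1 and 2 and 2 in livers 3 and 4. That of Marco was 1 in liver 2. Livers 2 and 4 gave 3 HSC segments each in MarcoLo ROIs. Cebpb, Vim and Col1a2 passed neither comparison. In MarcoHi and MarcoLo ROIs, Cebpb differed between labels by 0.53 and 0.42 in Other and by 0.47 and 0.39 in HSC segments. Vim differed by 0.39 and 0.37 in Other and by 0.29 and -0.33 in HSC segments. Col1a2 differed by 0.18 and 0.51 in Other and by -0.33 and 0.49 in HSC segments.

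Without any 1 liver, Mmp14 passed in 3 of 4 fits against HSC segments and in 2 of 4 against Other segments, the exceptions being those without liver 3 and, against Other segments, also without liver 1. Marco and Bicc1 against Other segments and Ggt5 against HSC segments did not pass without any 1 of the livers. Marco against HSC segments did not pass without liver 3 or 4, and Flna passed only without liver 4. With a pseudocount of 0 in place of 1, Marco did not pass against either segment type (limma adjusted p = 0.129 and 0.111). With counts of 1 set to 0, Mmp14 was the 1 gene left past the threshold in either comparison.

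**Figure D3:**
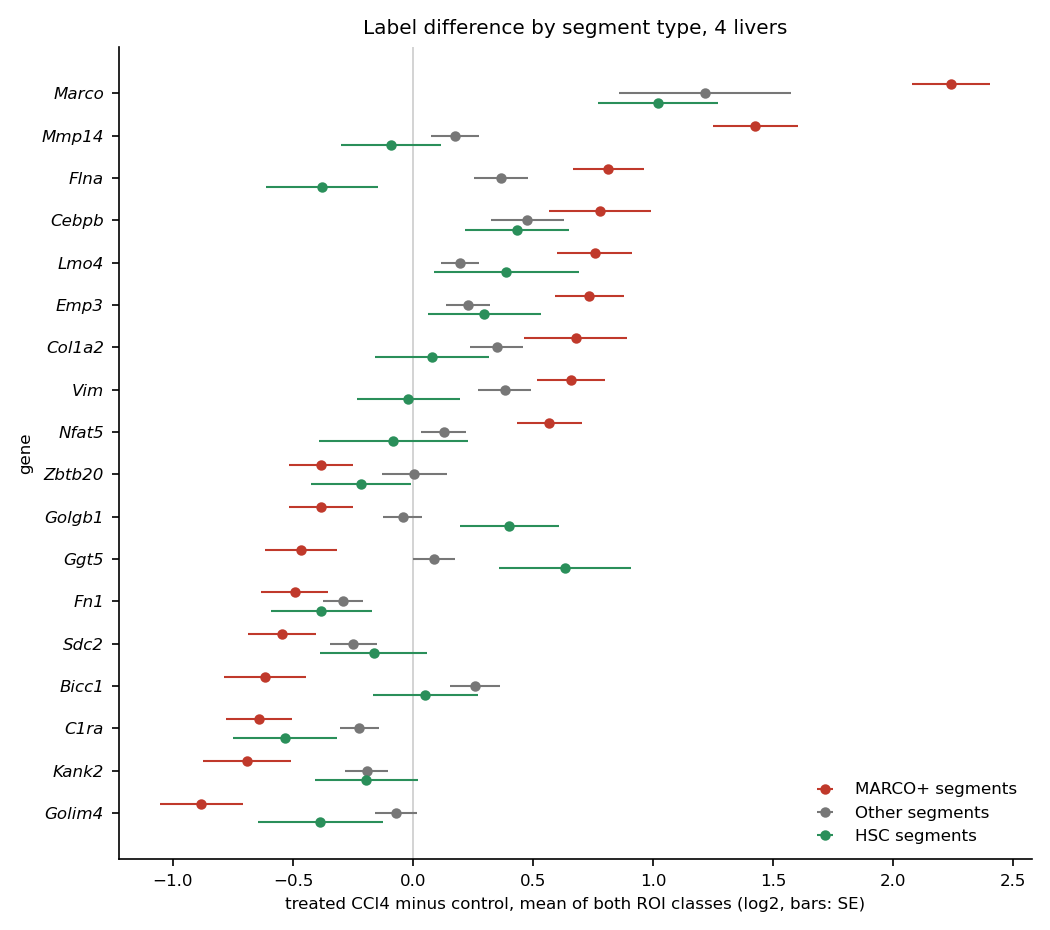
Treated CCl4 minus control difference (log2, bars are SE, mean of MarcoHi and MarcoLo ROIs, 4 livers) of 18 named genes in MARCO+, Other and HSC segments. The values of Mmp14 are 1.43, 0.18 and -0.09 and those of Flna 0.81, 0.37 and -0.38, whereas Marco is above 0 in all 3 segment types.

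MARCO- segments, which are IBA1+ without MARCO, were few (24) and shallow (1065 to 4457 counts), and liver 2 had none in MarcoHi ROIs. In their MarcoLo ROIs, Mmp14 had liver means of 34.4 and 37.1 in livers 1 and 3 against 26.1 and 15.6 in livers 2 and 4, the latter resting on 2 segments each. Marco stood at 13.1 and 16.7 against 13.0 and 20.9 there, a label difference of -0.15 (log2). In their MarcoHi ROIs it was 1.89, from livers 1 and 3 against liver 4 alone, with 1 segment in liver 1. From the same livers, Mmp14 differed by 1.17 in MarcoHi ROIs, on median counts of 5, 2 and 1 in livers 1, 3 and 4. In MarcoLo ROIs Mmp14 differed by 0.79. Flna differed by 0.43 in MarcoHi and by 0.51 in MarcoLo ROIs. None of these differences was tested against MARCO+ segments.

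Over the segments of 1 liver, the rank of Mmp14 was also set beside that of Marco. Spearman's rho was 0.36 in liver 1 (12 segments), -0.15 in liver 2 (14), 0.56 in liver 3 (10) and 0.45 in liver 4 (9). For Flna it was 0.38, 0.05, 0.62 and 0.00. The median over all other genes lay between -0.13 and 0.06. These points share a section and the 2 ROI classes and are given as a description.

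None of the other macrophage and monocyte genes measured passed the test in the mean of both classes. With 2 livers per label, this does not show that they were unchanged. Fcna, a ficolin made by Kupffer cells, had means of 284 and 325 against 265 and 282 in MarcoHi ROIs, and of 128 and 157 against 157 and 121 in MarcoLo ROIs, with overlap between labels in the latter. Its mean difference was 0.10 ± 0.15. Axl, a receptor for the engulfment of dead cells, differed by 0.09 ± 0.14, and Id3, a transcriptional regulator needed for Kupffer cells, by -0.08 ± 0.18. Of the monocyte and scar macrophage genes, Plac8 had means of 31.7 and 31.0 against 15.4 and 21.2 in MarcoHi ROIs and of 27.7 and 28.7 against 14.9 and 24.2 in MarcoLo ROIs. The labels did not overlap, but the difference of 0.65 ± 0.18 did not pass (limma adjusted p = 0.154). The lysosomal tetraspanin gene Cd63 differed by 0.18 ± 0.16. Thus 1 of the 6 macrophage and monocyte genes measured passed the test, and that was Marco, beside 4 of all 607 genes (0.659%).

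Since the table holds HSC genes, markers of HSCs were also examined in the MARCO+ segments. None of 21 stellate cell genes passed, 12 lay above 0 and 9 below, and their median difference was 0.02. Over all 607 genes in this comparison, 4 passed (0.659%), 295 lay above 0 and 312 below. At that share, a short list with no passing gene does not set its genes apart, here and in the lists that follow. Des stood between 4.40 and 8.38 in the liver means, Lrat, the enzyme that esterifies retinol, between 6.11 and 12.8, and Reln between 12.3 and 26.0. The summed value of the list was 243 and 251 in the livers labelled treated CCl4 against 256 and 283 in MarcoHi ROIs, and 360 and 268 against 322 and 277 in MarcoLo ROIs. The largest differences were those of Pdgfrb (0.45 ± 0.22), Ecm1 (-0.37 ± 0.20), Lrat (-0.28 ± 0.18) and Vipr1 (-0.26 ± 0.15).

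Of 29 mural and contractile genes, Flna passed and 28 did not, with a median of 0.05. In the mean of both classes 10 of them had both livers labelled treated CCl4 above both labelled control and 4 had both below. Over all 607 genes these shares were 17.1% above and 23.1% below. Besides Vim, a large value was that of Myh10, a non-muscle myosin (-0.43 ± 0.23).

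None of 11 collagen chains passed. Of these, 9 lay above 0 and 2 below, beside 295 and 312 of all 607 genes. Their median was 0.11, which was 0.15 in MarcoHi and 0.30 in MarcoLo ROIs. Without liver 4 the median was -0.09. After Col1a2, the largest values were those of Col14a1 (0.37 ± 0.32), Col4a1 (0.25 ± 0.28) and Col6a3 (0.24 ± 0.17). Col1a1 differed by 0.06 ± 0.18 and Col3a1 by 0.03 ± 0.16. None of 4 small leucine-rich proteoglycans passed (Prelp -0.22, Lum 0.21, Dcn 0.03 and Bgn -0.03).

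Mmp14 passed among 9 metalloproteinases and inhibitors, whose median was 0.09. Mmp2, the gelatinase that MT1-MMP activates, differed by 0.14 ± 0.21, and Timp2, the inhibitor that takes part in this activation, by 0.02 ± 0.19. Adamts2, a procollagen protease, differed by -0.40 ± 0.24 and Adamts10 by 0.22 ± 0.29. Among 24 other matrix and basement membrane genes none passed, 12 lay on each side of 0 and the median was 0.00. Ltbp4 (-0.54 ± 0.18) and Ltbp1 (0.46 ± 0.19), which both hold latent TGF-beta in the matrix, had opposite signs, and the laminin chain gene Lama2 differed by 0.50 ± 0.23.

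The complement and lectin list had the lowest median among the lists with at least 3 genes, -0.25, although none of its 11 genes passed. All but Fcna lay below 0. In 6 genes both livers labelled treated CCl4 lay below both labelled control, and in none above, beside 23.1% and 17.1% of all genes. After C1ra, the values were those of Serping1, the inhibitor of the C1 proteases (-0.55 ± 0.15, limma adjusted p = 0.154), C1s1, the second C1 protease (-0.39 ± 0.15), and the collectin receptor gene Colec12 (-0.32 ± 0.22). Serping1 had means of 59.8 and 53.1 against 79.8 and 82.4 in MarcoHi ROIs and of 63.1 and 45.8 against 79.7 and 81.6 in MarcoLo ROIs, with no overlap. Without liver 3 the list's median was -0.08. In Other segments C1ra differed by -0.22 ± 0.08 and in HSC segments by -0.53 ± 0.22.

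None of 11 TGF-beta and BMP pathway genes passed (median 0.09, 9 above 0), the largest being Fstl1, a secreted binder of these ligands (0.40 ± 0.14), Htra1 (0.29 ± 0.23), the ligand BMP9 gene Gdf2 (0.28 ± 0.27) and the co-receptor gene Tgfbr3 (-0.26 ± 0.16). None of 7 growth factor genes passed, with Vegfc at -0.46 ± 0.16 and Hgf at 0.25 ± 0.16. Of 6 chemokines, cytokines and receptors none passed: Tnfrsf11b 0.34, Ccl19 0.30, Cxcl12 -0.13, Tnfrsf1a 0.08, Lifr -0.08 and Il1r1 0.05. None of 10 stress and immediate early genes passed (median 0.12), with Gpx3 at 0.41 ± 0.19, Cryab at 0.21 ± 0.23 and Hspa5 at 0.18 ± 0.14. None of 9 guidance and adhesion genes passed, the widest being Pcdh7 (0.48 ± 0.20) and Alcam (-0.41 ± 0.15). The endothelial genes Plvap (-0.30 ± 0.18) and Rspo3 (0.09 ± 0.18) and the respiratory chain gene Ndufa2 (-0.40 ± 0.14) did not pass either.

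The medians near 0 were not stable. Of 13 lists with at least 3 genes, 4 kept the sign of their median with each liver left out in turn. These were the complement and lectin genes (-0.35 to -0.08), the stress and immediate early genes (0.10 to 0.17), the TGF-beta and BMP pathway genes (0.06 to 0.14) and the macrophage and Kupffer cell genes (0.05 to 0.15).

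**Figure D4:**
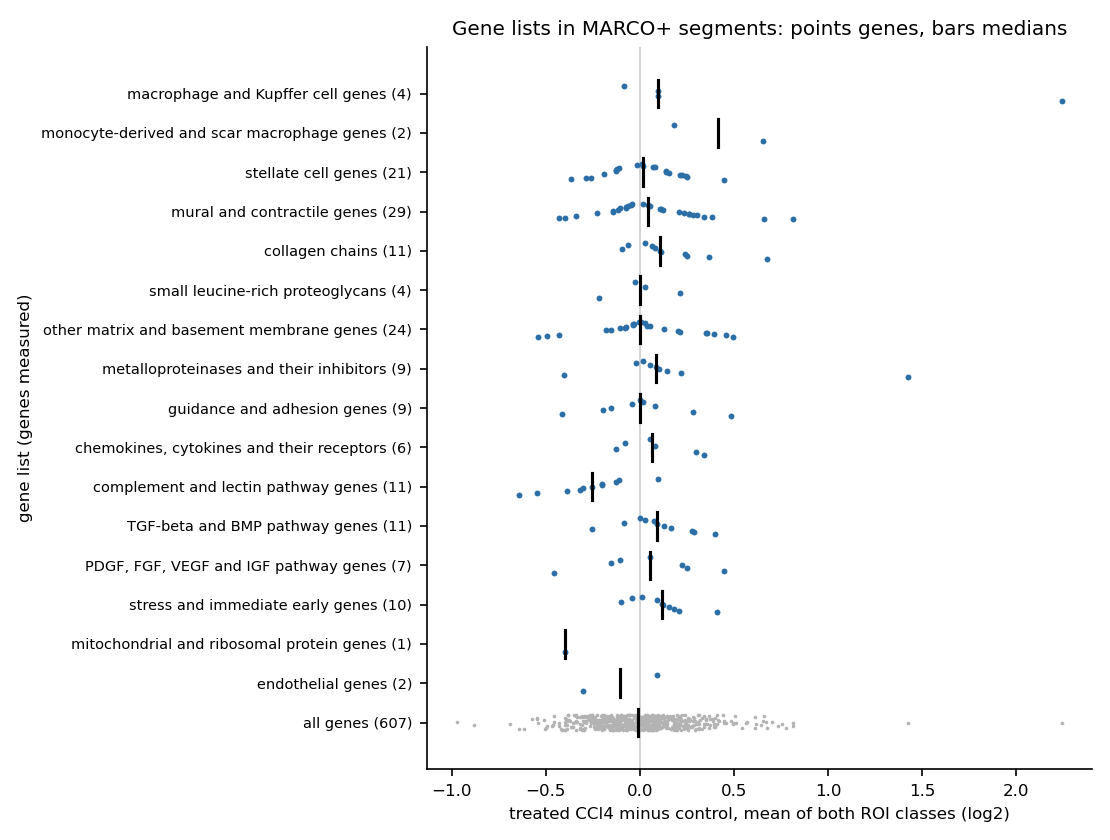
Treated CCl4 minus control difference (log2, mean of both ROI classes) of each measured gene of 16 lists (points) in MARCO+ segments, with the list median as a bar and all 607 genes in the lowest line. Medians lie close to 0 (0.02 for 21 stellate cell genes, 0.11 for 11 collagen chains), apart from complement and lectin genes at -0.25 and the lists of 1 or 2 genes, and Marco, Mmp14 and Flna stand apart within their lists.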

How the data were processed

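GeoMx signal values were deposited by the authors for 607 genes in 159 segments, Q3-normalized. In the methods, reads were demultiplexed (bcl2fastq, 2.20.0.422 in the submitters' processing notes, build mm10), deduplicated by molecular identifier, quality filtered and restricted to HSC genes, which leaves out most macrophage genes. Every deposited value was a whole multiple of 1 count (all 96513, to a relative tolerance of 1e-06), and this division returned the counts. The lowest was 1. Standard errors and p-values do not rest on the spread between 4 livers alone. They also use the ROI class means of the same liver and, through limma, the variances of other genes. In the label comparisons, the means left 4 residual degrees of freedom. The other genes gave a further 5.40, for a total of 9.40. The total was 9.91 in the test against Other segments and 31.7 in that against HSC segments.

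Groups, livers and segments came from the deposited names. Segments were averaged per liver and ROI class, then log2(value + 1) was fitted with limma 3.58.1 (lmFit, duplicateCorrelation by liver, eBayes; R 4.3.3). The ROI classes of a liver come from the same animal, and their deviations from the label means correlated at 0.19 (livers 1 and 3) and 0.18 (livers 2 and 4). The estimated correlation was 0.13 in the label comparisons of MARCO+ segments. It was 0.14 in the test against Other segments and -0.05 in that against HSC segments. Since these and the degrees of freedom differ, the p-values of the 2 segment tests are not on the same footing. Differences between ROI classes or segment types were fitted on within-liver differences, with liver as block where ROI classes were joined. All 607 symbols matched RefSeq GRCm38.p6, the source of positions. Fits without 1 liver kept the correlation of all 4, with the liver left alone under its label taken to be as variable as the rest.

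Members, lists and tests were chosen with earlier results of these data known. Named were Marco, the 5 genes of lowest p in each direction where fewer than 5 passed with livers apart, up to 3 passing genes in each direction of the segment comparisons, and the 4 largest members of each list (all members of lists of up to 6). Some genes that this rule names are not reported here. Col1a1, Col3a1, Timp2, Des and Reln were added for their roles. Alternatives used edgeR 4.0.16, DESeq2 1.42.0, lme4 1.1.37 and lmerTest 3.1.3. The scripts were tested on simulated data. Figures used matplotlib 3.10.9.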

Additional observations from a re-analysis of the deposited data

Results flagged for a closer look

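The label difference passed the test of a difference between segment types in 3 genes against Other and 4 against HSC segments. Against Other segments these were Mmp14 (1.25), Marco (1.03) and Bicc1 (-0.87), and against HSC segments Mmp14 (1.52), Marco (1.22), Flna (1.19) and Ggt5 (-1.10), each as the log2 label difference in MARCO+ segments minus that in the other type (limma, adjusted p below 0.05).

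Of 21 sets of 4 to 8 segments (1 gene, liver and ROI class each), 3 held a segment far below the others on the log2 scale. The sets share segments and some rest on few counts, so this number was not set against a rate expected by chance. Marco stood at 117 in 1 MarcoHi segment of liver 2, with the others from 216 to 353. Mmp14 stood at 8.02 (8 counts) in 1 MarcoHi segment of liver 4, with the others from 14.0 to 20.2. Flna stood at 14.0 (7 counts) in 1 MarcoHi segment of liver 1, with the others from 37.9 to 50.0. The same segment was also the lowest of its set for Marco (830) and for Mmp14 (18.1).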

How the results depend on the processing

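With 2 livers per label and median totals near 8408 counts per MARCO+ segment, small differences were not detectable. In MarcoHi ROIs the count of 1 gene became 2 with each class fitted alone, 2 with weights by segment number, 2 without the liver 4 MarcoLo mean (an alternative chosen after seeing the data), 3 with a pseudocount of 5, 8 in the linear mixed model, 10 with DESeq2, 20 with edgeR and 35 with single segments in limma. In MarcoLo ROIs the count of 3 became 1 with the class alone or without that mean, 5 in the mixed model and 20 with single segments. In the mean of both classes the count of 4 became 8 with no replicate block, 7 with weights, 10 with a pseudocount of 5, 14 in the mixed model, 24 with DESeq2, 32 with edgeR and 46 with single segments. The genes called by the mixed model in the mean did not include Marco, Mmp14 or Flna. Those it called in the single classes did not include Marco. The block changed no other call count by over 1.5 times. Leaving out 1 liver gave 0 to 1 genes in MarcoHi ROIs, 0 to 1 in MarcoLo ROIs, 1 to 2 in their mean, 0 to 1 against Other segments and 0 to 3 against HSC segments. Against HSC segments the count of 4 became 2 with a pseudocount of 0 and 1 with counts of 1 set to 0, and against Other segments the count of 3 became 1 with that setting and 1 with low genes left out. Each gene named for its p kept its sign under these alternatives in the comparison that named it, and the causes of these shifts were not tested.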
